A study of Mus musculus with 44 samples.

Results

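The genes *Yap1*, *Wwtr1*, *Tead1*, *Tead2*, *Tead3*, *Tead4*, *Lats1*, *Lats2*, *Amot* and *Nf2*, which encode core parts of the Hippo pathway and its Tead transcription factors, were followed in single two-cell mouse embryos. They were taken by name from the deposited expression table, where each of the 10 symbols matched a single one of 35269 rows. The table held 44 embryos from 6 matings of 3 crosses. Embryos with the same mating number are called a litter here, and whether a mating number stands for 1 mother is not given in the labels. The 14 WT embryos were Dppa2/4+/+ and came from control females mated with WT males. The 15 HET1 embryos were Dppa2/4+/- and came from Dppa2/4 m- females, labelled cKO, mated with WT males. The 5 HET2 embryos, also Dppa2/4+/-, and the 10 HOM embryos, Dppa2/4-/-, shared 2 litters of Dppa2/4 m- females mated with HET males. In the Dppa2/4 m- females both genes were deleted in growing oocytes by Cre under the Zp3 promoter, so HET1, HET2 and HOM embryos all lacked the maternal store. HET1 and HET2 embryos both received a WT allele from the father, whose genotype differed, and HOM embryos received none. Whether an embryo of that cross is HET2 or HOM was decided by the authors on its *Dppa2* and *Dppa4* reads. Each group came from 2 litters, with 10 and 4 WT, 7 and 8 HET1, 4 and 1 HET2, and 3 and 7 HOM embryos.

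The Hippo pathway is a kinase cascade that reads cell contact, polarity and shape. The kinases Lats1 and Lats2 phosphorylate the co-activators Yap1 and Wwtr1 (also called Taz), which are then held in the cytoplasm or degraded. When the kinases are inactive, Yap1 and Wwtr1 enter the nucleus and bind the Tead factors, which contact DNA but need a co-activator to drive transcription. The pathway is best known in the preimplantation embryo for the later choice between trophectoderm and inner cell mass, where Tead4 with Yap1 switches on *Cdx2* in outer cells while Amot and Nf2 keep Lats kinases active in inner cells. The oocyte also stores transcripts of several of these genes.

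Values were log2 RPM (reads per 1000000 reads), a share of the reads of an embryo, so that a change in total RNA cannot be told apart from one in other genes. Total reads were 637704 to 3163026 in WT, 247667 to 1830316 in HET1, 698469 to 2136068 in HET2 and 418558 to 3048642 in HOM embryos. Because an embryo without reads for a gene stands at a value set by its depth, all values were raised to a common floor of 1.86 log2 RPM, the highest such value of any embryo. A deeper embryo at the floor can therefore still have reads for the gene. In RPM, 3 reads were worth 0.948 to 12.1 depending on the embryo, which is what a count of 0 still allows. The transcripts used for labelling were at or near that floor in HOM embryos, where the highest value was 2.05 for *Dppa2* and 2.02 for *Dppa4*, against WT medians of 8.39 and 7.12. All 9 markers of the two-cell embryo and all 10 of the oocyte store had reads, and summed to 179 to 1687 and 1234 to 4329 RPM per embryo. Their sums differed with group, with medians in HET1 against WT embryos of 973 against 533 RPM for the two-cell list and 2727 against 2032 for the oocyte list. Of 13 cumulus and granulosa markers, *Fshr* and *Nr5a1* had no reads and *Foxl2* had 2, while the list summed to 6.31 to 116 RPM, mostly from *Amhr2* and *Kitl*. The sperm and testis list summed to at most 0.706 RPM. The 7 markers of trophectoderm and the later embryo summed to 0 to 148 RPM, mostly *Tfap2c*, with *Cdx2* seen in 1 embryo. In HOM against HET2 embryos the medians were 741 against 650 RPM for the two-cell list and 2365 against 2179 for the oocyte list. They were 55.7 against 31.5 for cumulus and granulosa markers, and 53.9 against 22.0 for trophectoderm and the later embryo. The part of these lists in the values of the members was not tested.

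*Yap1* was the most abundant member in every group and had 149 to 1640 reads in every embryo. Per kb of merged exon, its mean level over the 44 embryos was 59.0 ± 21.5 RPM (SD), followed by *Nf2* at 14.0 ± 6.89, *Wwtr1* at 5.43 ± 3.53, *Tead4* at 4.32 ± 5.41 and *Lats1* at 2.19 ± 1.76. The low members were *Tead2* at 1.02 ± 1.40 RPM per kb, *Amot* at 0.687 ± 0.893, *Tead1* at 0.487 ± 0.405 and *Lats2* at 0.447 ± 0.809, and *Tead3* stood at 0.0198 ± 0.0659. *Yap1* exceeded *Nf2* in 44 of 44 embryos and *Nf2* exceeded *Wwtr1* in 43. Below that the neighbours were within their spread: *Wwtr1* exceeded *Tead4* in 32 embryos, *Tead4* exceeded *Lats1* in 25, *Tead2* exceeded *Amot* in 25 and *Amot* exceeded *Tead1* in 20. *Yap1*, *Nf2*, *Wwtr1* and *Tead4* were the first 4 in this order in each of the 4 groups, and *Tead3* was last in each. Thus the co-activator *Yap1* was far more abundant as transcript than any Tead partner.

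**Figure D1:**
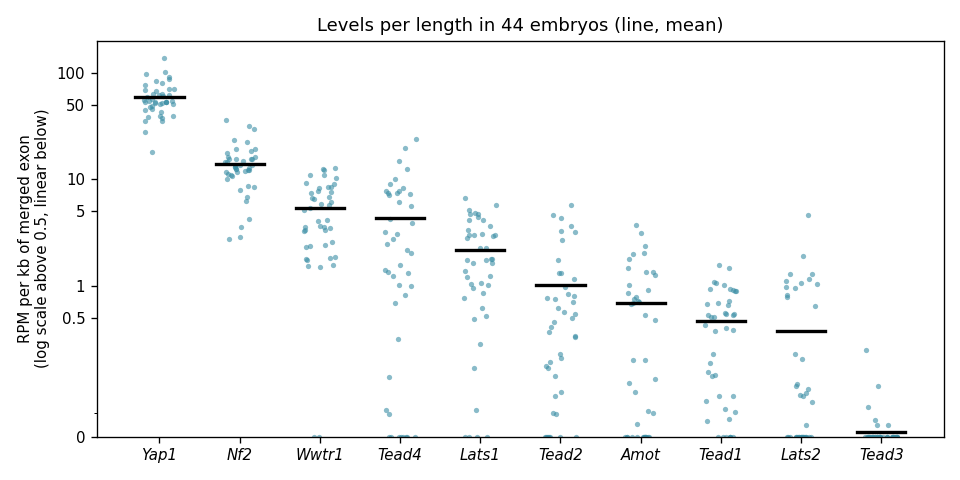
RPM per kb of merged exon for each member, 1 point per embryo (44), with a line at the mean, on an axis that is logarithmic above 0.5 and linear below. *Yap1* has a mean of 59.0, above *Nf2* at 14.0, and *Tead3* lies at or near 0.

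The annotation places *Yap1* on chromosome 9 (GRCm38, 7931999 to 8004596, reverse strand). The deposited span of every member equals that of its gene in GENCODE vM21. Reads were counted without regard to strand, and 2955 of the 6971 exon bases of *Lats2* (42.4%) are also exon of Gm49361 on the same strand, so that values of *Lats2* are uncertain. The share of exon overlapped by other genes was 1.25% for *Yap1*, 0.272% for *Tead2* and 0 for the other 7 members.

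RefSeq promoter windows (GRCm38.p6, 250 bases before to 50 after a start) were held for 8 members, in 13 windows, and none was held for *Tead1* or *Tead4*. They are shown for the most abundant member, for the kinase gene *Lats1*, called between litters of HET1 embryos, and for *Tead3*, which had almost no reads. Capitals mark GGAATG, the core of the element that Tead factors bind, or CATTCC, the same letters on the other strand. The windows lie at chr9:8004547-8004846 on the reverse strand for *Yap1*, chr10:7680959-7681258 on the forward strand for *Lats1* and chr17:28350551-28350850 on the reverse strand for *Tead3*.
Yap1: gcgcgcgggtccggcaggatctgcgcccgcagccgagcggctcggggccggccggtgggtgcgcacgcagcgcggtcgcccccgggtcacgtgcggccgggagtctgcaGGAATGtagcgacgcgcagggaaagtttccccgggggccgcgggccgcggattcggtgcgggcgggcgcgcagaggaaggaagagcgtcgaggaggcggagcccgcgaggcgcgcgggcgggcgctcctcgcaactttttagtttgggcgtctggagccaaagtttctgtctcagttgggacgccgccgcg
Lats1: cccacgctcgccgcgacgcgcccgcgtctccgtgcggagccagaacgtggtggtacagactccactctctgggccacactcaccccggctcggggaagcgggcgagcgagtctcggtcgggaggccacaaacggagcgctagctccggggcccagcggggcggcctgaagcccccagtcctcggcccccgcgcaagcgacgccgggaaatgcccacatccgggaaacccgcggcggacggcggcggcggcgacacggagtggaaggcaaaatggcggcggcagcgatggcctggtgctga
Tead3: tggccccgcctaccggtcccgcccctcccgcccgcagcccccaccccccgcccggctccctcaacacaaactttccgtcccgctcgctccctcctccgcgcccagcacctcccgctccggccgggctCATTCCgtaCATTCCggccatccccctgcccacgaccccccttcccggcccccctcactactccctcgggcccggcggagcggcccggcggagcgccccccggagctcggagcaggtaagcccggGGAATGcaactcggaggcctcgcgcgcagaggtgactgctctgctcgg
The motif was matched 1 time in the *Yap1* window, 3 times in this *Tead3* window and not in that of *Lats1*. *Tead3* had 3 windows with 1, 3 and 0 matches, and the one with 3 is printed. Of all 32851 windows of this length 14.7% held it, as did 6 of the 13 windows of the members, some of which overlap. These matches describe letters only. The windows had 49 CG pairs for *Yap1*, 42 for *Lats1* and 34 for *Tead3*, against a median of 7 over all windows.

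Of the 10 members, 9 passed the filter for testing (above the floor in at least 5 of 44 embryos), and *Tead3* did not. In *Tead3*, which encodes a Tead factor, 6 embryos had 1 read each and 38 had none. The other Tead factors were seen more often but at few reads. *Tead1* had reads in 37, *Tead2* in 36 and *Tead4* in 36 of 44 embryos, with medians of 5, 3 and 7.5 reads. The kinase *Lats1* had reads in 40 embryos and *Lats2* in 23, and *Amot*, a junctional scaffold that binds Yap1, had reads in 29. *Wwtr1* had reads in 42, and *Yap1* and *Nf2*, which encodes the membrane scaffold Merlin, in all 44. At the depth of the shallowest embryo, 247667 reads, the expected numbers were 29.0 for *Tead1*, 21.9 for *Tead2*, 29.6 for *Tead4*, 36.1 for *Lats1*, 14.8 for *Lats2* and 21.9 for *Amot*. Fewer embryos with reads are thus expected for these 6 members at the lowest depth.

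**Figure D2:**
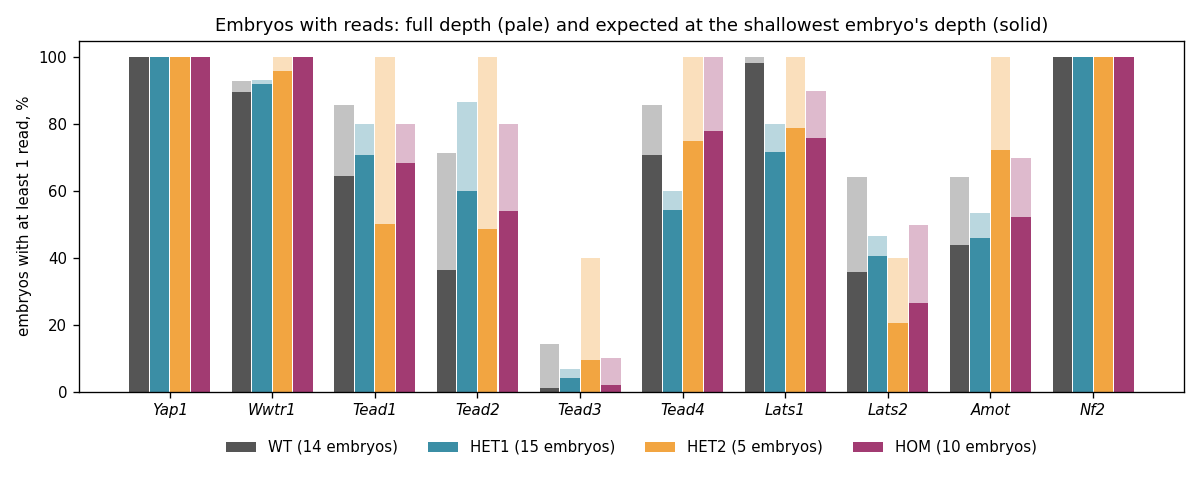
Percent of embryos with at least 1 read for each member in WT (14), HET1 (15), HET2 (5) and HOM (10) embryos; pale bars are the embryos as sequenced, solid bars the number expected if each had 247667 reads. *Yap1* and *Nf2* reach 100% in every group, and *Lats1* is at 98.4% in WT and 71.7% in HET1 embryos at equal depth.

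Did the lack of maternal and zygotic Dppa2/4 change these genes? HOM embryos were set against WT embryos with limma and Benjamini-Hochberg adjustment over 13338 genes, of which 6 (0.045%) were called at an adjusted p under 0.05. None of the 9 tested members was called, and limma voom on the recovered reads also called 0. At an unadjusted p under 0.05 there were 3 members, beside 16.5% of all genes, and 0 members with litter as a random effect or with litter means as replicates. Their median difference was 0.21 (log2) beside 0.17 over all genes tested. *Yap1* had a lowest, median and highest level of 8.46, 8.91 and 9.65 log2 RPM in HOM embryos and of 7.37, 8.91 and 10.32 in WT embryos. The groups overlapped fully, and the difference was 0.03 ± 0.21 (SE; 95% interval -0.40 to 0.46; adjusted p = 0.952). This was the narrowest interval of the 9 tested members in the comparison, but the value depended on the WT litter, at -0.53 without WT litter 1 and 0.26 without WT litter 2.

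*Wwtr1*, the second co-activator, had values of 4.62, 5.17 and 5.93 in HOM and 1.86, 4.04 and 5.90 in WT embryos. The difference was 1.09 ± 0.43 (95% interval 0.23 to 1.96; adjusted p = 0.188). Leaving out each litter, it ranged from 0.71 (without HOM litter 2) to 1.46 (without WT litter 1). *Nf2* had values of 5.41, 6.84 and 7.95 in HOM and 4.25, 6.38 and 6.78 in WT embryos. Its difference was 0.82 ± 0.31 (0.19 to 1.45; adjusted p = 0.181), and 0.20 without HOM litter 2. For both genes the lower part of the WT range was not seen in HOM embryos, but the ranges overlapped. The lowest WT values of *Nf2*, 4.25 and 4.61, were those of replicates j and k. These embryos had reads in 9403 and 9169 genes, against a WT median of 12247. They also held the lowest and highest WT values of *Yap1*. The next value of *Nf2*, 4.87, was that of replicate m, with reads in 13675 genes. The part of library complexity in these values was not tested. *Lats1* went the other way from *Wwtr1* and *Nf2*, at 1.86, 3.57 and 5.61 in HOM and 2.97, 4.45 and 5.38 in WT embryos. Its difference was -1.03 ± 0.47 (-1.97 to -0.10; adjusted p = 0.253), with 3 HOM embryos at the floor and no WT embryo there. *Tead1*, *Tead2*, *Tead4*, *Lats2* and *Amot* differed by 0.06, 0.40, 0.59, -0.20 and 0.21, all with intervals that spanned 0. Leaving out each litter in turn, 5 of the 9 members kept 1 sign (*Wwtr1*, *Tead2*, *Lats1*, *Amot* and *Nf2*). *Tead4* was -0.92 without HOM litter 2 and 1.53 without WT litter 1, and *Tead1* and *Lats2* were -0.48 and 0.16 without WT litter 1.

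**Figure D3:**
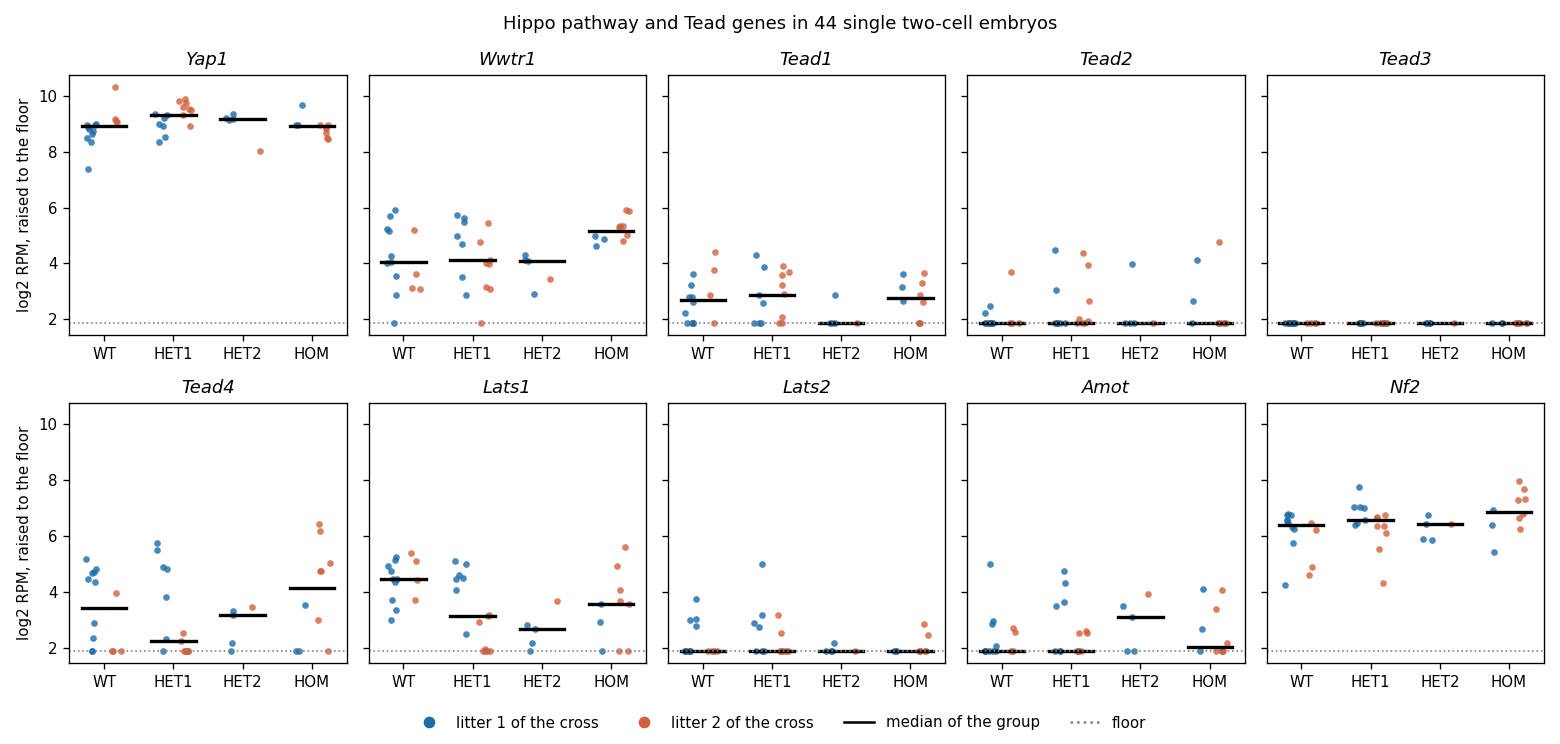
Log2 RPM of each member, raised to the floor of 1.86 (dotted), 1 point per embryo, coloured by litter of the cross, with the group median as a black line. *Yap1* lies near 9 in every group and *Tead3* lies at the floor. In HET1 embryos *Lats1* and *Tead4* have lower medians in litter 2 than in litter 1, with ranges that overlap.

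HET1 embryos had lost the maternal store but received a WT allele from the father, and 868 genes (6.51% of those tested) were called against WT. That count moved with depth and with litter. HET1 embryos had a median of 528166 total reads against 1770010 in WT, and with log2 total reads as a covariate limma called 0 genes, with 1706 at an unadjusted p under 0.05. It called 307 without embryos of under 500000 reads, 5 without HET1 litter 2, 2563 without HET1 litter 1 and 136 without WT litter 1. None of the 9 members was called, 2 had an unadjusted p under 0.05, beside 21.9% of all genes, and voom called 1. The sums of the two-cell and oocyte lists, given above, were also higher in HET1 embryos at the median, and their part in these values was not tested. *Lats1* had the largest difference. It was 1.86, 3.14 and 5.11 log2 RPM at its lowest, median and highest in HET1 embryos, against 2.97, 4.45 and 5.38 in WT, a difference of -1.17 ± 0.42 (95% interval -2.01 to -0.33; adjusted p = 0.0791). This difference rested on 1 litter. Without HET1 litter 2 it was -0.11, and without HET1 litter 1 it was -2.10 (adjusted p = 0.000599). With log2 total reads as a covariate it was -1.20 (adjusted p = 0.284). *Yap1* was 8.35, 9.30 and 9.88 in HET1 and differed from WT by 0.41 ± 0.19 (0.03 to 0.80; adjusted p = 0.186). This value rested on litters too. It was -0.15 without WT litter 1 and 0.10 without HET1 litter 2, and was called at 0.64 without WT litter 2 (adjusted p = 0.0296) and at 0.69 without HET1 litter 1 (adjusted p = 0.0249). Groups overlapped in both genes. The other tested members had intervals that spanned 0, with differences of 0.10 for *Wwtr1*, 0.14 for *Tead1*, 0.43 for *Tead2*, -0.35 for *Tead4*, 0.19 for *Lats2*, 0.22 for *Amot* and 0.42 for *Nf2*. Leaving out each litter in turn, 3 of the 9 members kept 1 sign (*Tead2*, *Lats1* and *Nf2*). With litter as a random effect no gene at all was called, against 1010 genes at an unadjusted p under 0.05, and litter is nested in these groups, so litter and genotype cannot be told apart in comparisons with WT.

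In HET2 embryos 5 genes (0.0375%) were called against WT and 0 of the 9 members, with 1 at an unadjusted p under 0.05, beside 9.01% of all genes, and 0 by voom. That gene was *Lats1*, at 2.81, 2.66, 1.86, 2.18 and 3.67 log2 RPM in the 5 embryos. In 4 of the 5 it was below the lowest WT embryo, the groups overlapped through the last one, and the difference was -1.79 ± 0.59 (-2.97 to -0.61; adjusted p = 0.347). *Wwtr1* was 2.91, 4.31, 4.10, 4.11 and 3.46 in the same embryos. *Yap1* was 9.16, 9.13, 9.20, 9.34 and 8.02, the last being the 1 embryo of litter 2. *Nf2* was 5.88, 5.85, 6.42, 6.74 and 6.42. The differences from WT were -0.34 for *Wwtr1*, 0.13 for *Yap1* and 0.23 for *Nf2*, and the 3 comparisons above share their WT embryos. *Tead1*, *Tead2*, *Tead4*, *Lats2* and *Amot* differed by -0.63, 0.22, -0.54, -0.30 and 0.49, with intervals that spanned 0. Without WT litter 1 the differences of *Wwtr1*, *Yap1* and *Nf2* were 0.02, -0.44 and 0.73. Leaving out each HET2 embryo, they ranged from -0.47 to -0.12 for *Wwtr1*, 0.03 to 0.37 for *Yap1* and 0.11 to 0.33 for *Nf2*. Leaving out each litter, 4 of the 9 members kept 1 sign (*Tead1*, *Lats1*, *Amot* and *Nf2*), and *Lats1* was -0.75 without HET2 litter 1.

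HOM and HET2 embryos came from the same 2 matings, so litter was a term of the model, and 2 of 13265 genes (0.0151%) were called, namely *Dppa2* and *Dppa4*, which had set the labels. None of the 9 members was called, 2 had an unadjusted p under 0.05, beside 4.53% of all genes, and voom called 0. Only 1 member had an unadjusted p under 0.05 without the common floor, and 1 with voom. *Wwtr1* did not overlap between the groups: the lowest of 10 HOM embryos was at 4.62 and the highest of 5 HET2 embryos at 4.31. Values that do not overlap in these groups were found for 13 of 13338 genes (0.0975%). The median difference over all genes tested was 0.19, and 8 of the 9 members were higher in HOM embryos. With embryos shifted to a common median, these were 0.06 and 5 of 9. The group medians of that shift were 0.28 in HOM and -0.18 in HET2 embryos. Its part in the values of *Wwtr1* was not tested. The difference of *Wwtr1* was 1.29 ± 0.40 (95% interval 0.44 to 2.14; adjusted p = 0.866). *Tead1* was 1.86, 2.77 and 3.68 at its lowest, median and highest in HOM embryos, and in HET2 embryos it was at the floor in 4 of 5 and at 2.86 in the other. Those at the floor still had 5, 1, 1 and 6 reads. *Tead1* thus had reads in 5 of 5 HET2 and 8 of 10 HOM embryos. Its difference was 0.94 ± 0.40 (0.09 to 1.78; adjusted p = 0.866). *Lats1* differed by 0.26 ± 0.68 (-1.17 to 1.68), and *Yap1*, *Tead2*, *Tead4*, *Lats2*, *Amot* and *Nf2* by 0.23, 0.47, 0.23, 0.02, -0.30 and 0.24, with intervals that spanned 0.

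**Figure D4:**
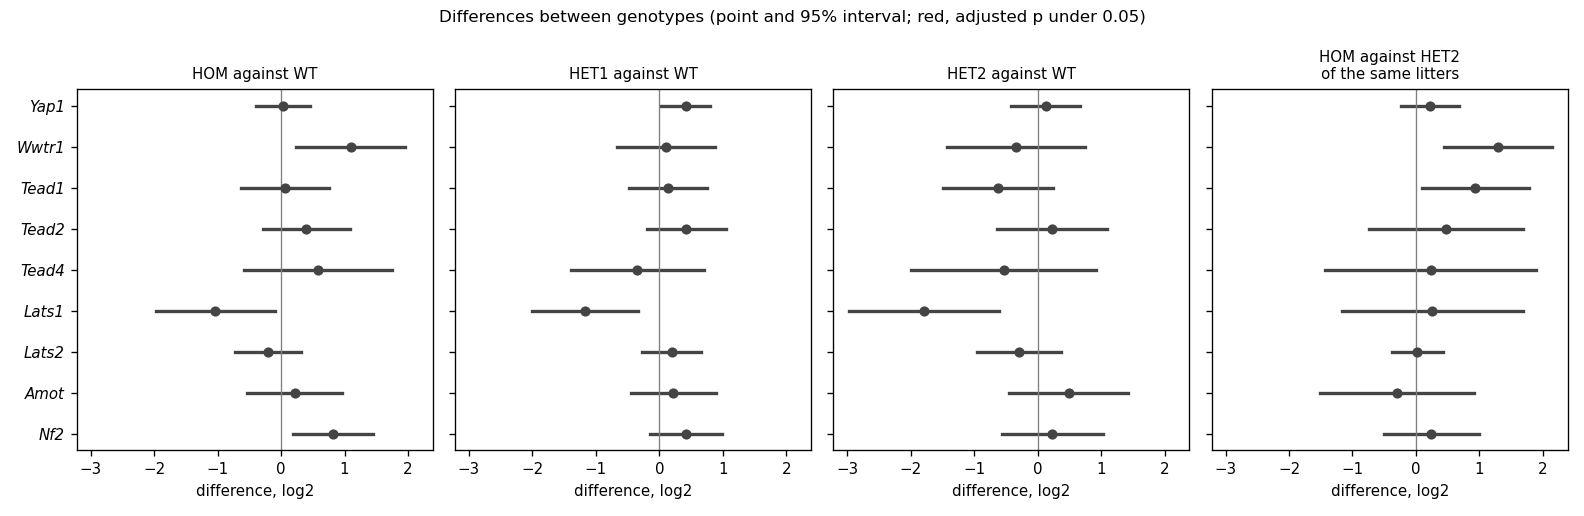
Differences in log2 RPM for the 9 tested members in 4 comparisons of genotype, with 95% intervals from limma. No interval belongs to a called gene, and *Lats1* lies below 0 in the 3 comparisons with WT, which share the WT embryos.

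Litters of a single genotype were compared in the same way. In HET1 embryos litter 2 differed from litter 1 in 2920 genes (21.9% of those tested), and 3 of the 9 members were called. At an unadjusted p under 0.05 there were 6 members, beside 34.2% of all genes, and the median difference of the 9 was -0.80 (log2) beside -0.18 over all genes tested. These counts describe 9 genes in 2 litters, and no difference from the rest of the table was tested. *Lats1* was at 2.50, 4.47 and 5.11 log2 RPM (lowest, median, highest) in the 7 embryos of litter 1, and at 1.86, 1.90 and 3.16 in the 8 of litter 2, 4 of them at the floor. It fell by 1.99 ± 0.51 (SE, log2; adjusted p = 0.00351). *Tead4*, the Tead factor best known in the trophectoderm, was at 1.86, 4.82 and 5.73 in litter 1 and at 1.86, 1.86 and 2.51 in litter 2, where 6 of 8 embryos were at the floor. It fell by 2.13 ± 0.62 (adjusted p = 0.00973). *Yap1* was at 8.35, 8.97 and 9.35 in litter 1 and at 8.92, 9.56 and 9.88 in litter 2, and rose by 0.59 ± 0.22 (adjusted p = 0.0439). The ranges of the litters overlapped in all 3 genes. *Nf2*, *Amot* and *Lats2* differed by -0.80, -0.99 and -0.66 (adjusted p = 0.104, 0.106 and 0.128), and *Wwtr1*, *Tead1* and *Tead2* by -0.89, 0.14 and 0.16, with intervals that spanned 0. All 3 calls stayed with log2 total reads as a covariate, and were lost without embryos of under 500000 reads. Those left out were 6 HET1 embryos, 3 of each litter, and HOM replicates d and g. The differences of *Lats1*, *Tead4* and *Yap1* were then -1.82, -2.19 and 0.76 (adjusted p = 0.0784, 0.0722 and 0.086).

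In WT embryos 234 genes (1.75%) were called between litters and 0 of the 9 members, with 1 at an unadjusted p under 0.05, beside 14.7% of all genes, and 1 by voom. That gene was *Yap1*, at 10.32, 9.10, 9.16 and 9.05 log2 RPM in the 4 embryos of litter 2, all above the highest of the 10 embryos of litter 1 (8.99). Values without overlap between these litters were found for 114 genes (0.855%). The difference of *Yap1* was 0.79 ± 0.25 (0.29 to 1.29; adjusted p = 0.0848), and it depended on single embryos of litter 2. It was 0.49 (adjusted p = 0.674) without WT replicate k, the embryo at 10.32, and 0.91 (adjusted p = 0.0454) without WT replicate n. The number of genes called was 49 without replicate k and 543 without replicate n. *Tead4* had a median of 4.40 in litter 1 and was 1.86, 1.86, 1.87 and 3.94 in litter 2, a difference of -1.33 ± 0.70 (adjusted p = 0.389). *Wwtr1*, *Tead1*, *Tead2*, *Lats1*, *Lats2*, *Amot* and *Nf2* differed by -0.51, 0.76, 0.36, 0.32, -0.50, -0.15 and -0.70, with intervals that spanned 0. In HOM embryos 309 genes (2.32%) were called between litters and 0 of the 9 members, with 1 at an unadjusted p under 0.05, beside 18.3% of all genes, and 0 by voom. *Tead4* was at 1.86, 3.52 and 1.86 in the 3 embryos of litter 1 and at 1.86, 4.74 and 6.43 (lowest, median, highest) in the 7 of litter 2, a difference of 2.15 ± 0.82 (adjusted p = 0.141). The other 8 differed by -0.44 (*Yap1*), 0.55 (*Wwtr1*), -0.59 (*Tead1*), -0.62 (*Tead2*), 0.87 (*Lats1*), 0.23 (*Lats2*), -0.44 (*Amot*) and 0.88 (*Nf2*), with intervals that spanned 0. Over all 44 embryos *Tead4* had an SD of 1.46 (log2), against 0.52 for *Yap1*. These SDs stand at unlike counts, since *Tead4* had a median of 7.5 reads and 15 embryos at the floor. *Yap1* had at least 149 reads in every embryo. The mating numbers belong to different crosses, so a sign shared between crosses has no meaning.

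**Figure D5:**
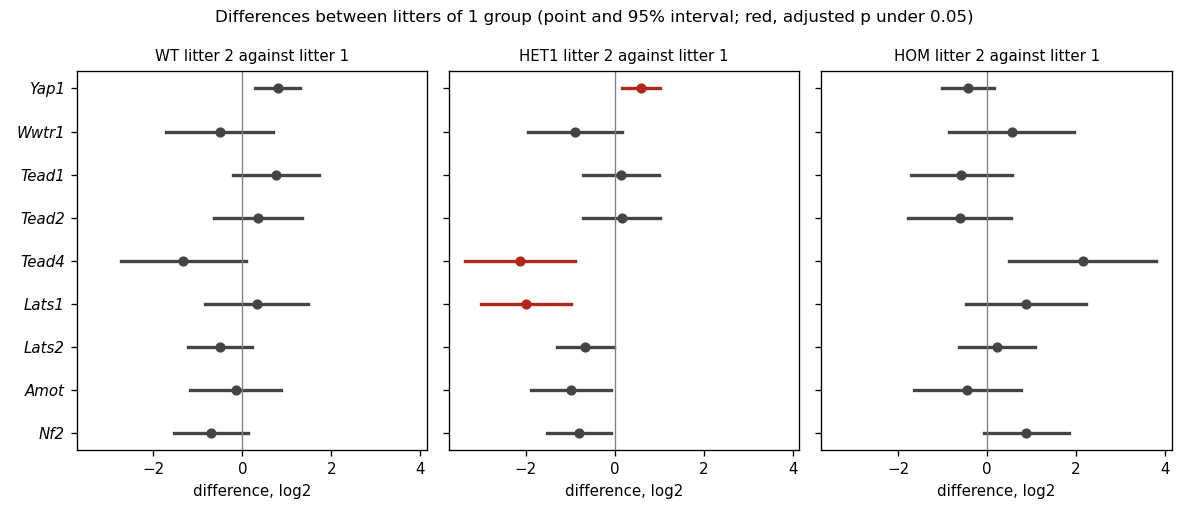
Difference of litter 2 from litter 1 in log2 RPM for the 9 tested members, with 95% intervals from limma, in WT, HET1 and HOM embryos. Red marks the 3 called members in HET1 embryos, *Yap1*, *Tead4* and *Lats1*.

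Within group and litter the SD of *Yap1* was 0.39 (log2) and that of *Nf2* 0.70. Over the 44 embryos *Wwtr1* and *Nf2* had a Spearman correlation of 0.60, and a Pearson correlation of 0.39 once group and litter means were removed. The other 5 pairs among *Yap1*, *Wwtr1*, *Lats1* and *Nf2* had Spearman correlations between -0.35 and 0.16. Once group and litter means were removed, their Pearson correlations were between -0.20 and 0.25. *Yap1* and *Nf2* went from -0.25 to 0.25, and *Yap1* and *Lats1* from -0.33 to 0.04. These coefficients describe embryos that share litters and unequal depth.

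The rest of the pathway was taken as 68 genes in 4 roles, all of them in the table, of which 51 were tested. Between HET1 and WT embryos 3 were called higher and 1 lower, 7.84% of the 51 beside 6.51% of all genes tested, a share near that of the whole table. None was called in the other 3 comparisons of genotype. Of 14 upstream kinases and their co-factors 6 had reads in all embryos, and *Map4k1*, *Map4k2*, *Map4k3* and *Mink1*, named here after their values were seen, had medians at the floor. The highest were *Taok1*, a kinase that activates the cascade, at a mean of 8.87 log2 RPM, and *Mob1a*, a co-factor of the Lats kinases, at 7.99. None of these 14 was called between genotypes. Among 21 junction, polarity and scaffold regulators 16 were tested, with *Wwc2*, an activator of Lats kinases, at 9.29 and the polarity gene *Pard3* at 6.87. *Pard3* rose in HET1 embryos, at a mean of 7.45 ± 0.93 (SD, n = 15) against 5.94 ± 1.04 (n = 14) in WT, a difference of 1.50 ± 0.33 (SE; adjusted p = 0.00445). The call was lost with litter as a random effect (1.51, adjusted p = 0.325), with log2 total reads as a covariate (1.24, adjusted p = 0.163), without HET1 litter 2 (0.88, adjusted p = 0.237) and without WT litter 1 (1.68, adjusted p = 0.0902).

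Of 16 cofactors and partners 13 were tested, and the 14-3-3 genes *Ywhaz* and *Ywhaq*, whose products hold phosphorylated Yap1 in the cytoplasm, stood at 7.76 and 7.38 log2 RPM. In HET1 against WT embryos *Ywhaz* rose by 1.00 ± 0.25 (adjusted p = 0.0112), *Vgll4*, a competitor of Yap1 for Tead factors, rose by 1.06 ± 0.33 (adjusted p = 0.0389), and *Ywhab*, another 14-3-3 gene, fell by 0.83 ± 0.25 (adjusted p = 0.0337). These 3 calls were absent under the same 4 settings, and without HET1 litter 2 the differences were 0.41, 1.19 and -0.43. All 3 were also lost without embryos of under 500000 reads (adjusted p = 0.0596, 0.111 and 0.0955). Litter means as replicates ended these calls and that of *Pard3*. The call of *Vgll4* was also lost with the floor at 3 reads of the shallowest embryo (0.31), with both other gene filters and without HET1 litter 1. That of *Ywhab* was also lost without WT litter 2 (-0.61), with voom, with mating number as a block and with only the groups compared. Between litters 10 of the 51 pathway genes were called in HET1 embryos (19.6%, beside 21.9% of all genes), 3 in WT embryos (5.88%, beside 1.75%) and 0 in HOM embryos. *Pard3* and *Ywhaz* were among the 10, higher in litter 2 by 1.16 (adjusted p = 0.029) and 1.10 (adjusted p = 0.00414). Without embryos of under 500000 reads 2 of the 51 were called higher and 2 lower between HET1 litters, beside 9.54% of all genes. With embryos shifted to a common median these were 7 and 5, beside 21.0%. The 3 in WT embryos, named after their values were seen, were *Map4k5* and *Wwc2*, higher in litter 2 by 1.13 and 0.88, and *Stk4*, lower by 1.72 on the log2 scale. This count depended on single embryos. Between WT litters 0 of the 51 were called without replicate k, beside 0.367% of all genes. Without replicate l 0 were called higher and 1 lower, and without embryos of under 500000 reads 1 higher and 0 lower (beside 1.90% and 1.30%). Voom called 4 higher and 1 lower (beside 5.05%). Among 17 targets of Yap1 and Tead factors 8 were tested and none was called between genotypes. The highest were *Birc5*, which encodes survivin, at 7.44 and *Tgfb2*, a growth factor gene, at 7.38. The classical targets *Cyr61*, *Ctgf* and *Ankrd1*, named here after their values were seen, had reads in 7, 2 and 0 of 44 embryos.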

How the data were processed

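Single two-cell embryos from natural matings were sequenced by a Smart-seq2 type protocol after removal of the zona. The authors trimmed reads (Trim Galore 0.6.5, cutadapt 2.3), mapped them to GRCm38 (HISAT2 2.1.0), filtered on mapping quality and counted reads over mRNA probes with SeqMonk, ignoring strand, and the deposited values are log2 RPM. Groups and litters came from the labels. Genes without reads stand at 0.9 read. Reads behind each value were recovered from these steps (99.9997% within 0.05 read of a whole number). No 2 columns were identical.

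Values were raised to the floor of 1.86 and limma 3.58.1 (R 4.3.3) was run on genes above it in at least 5 embryos, using lmFit and a trended eBayes, with Benjamini-Hochberg adjustment at 0.05. HOM and HET2 embryos were fitted with litter, and genes constant in those embryos were dropped. Embryos of a litter came from the same mating, so p-values and intervals measure the spread between embryos, not between matings. The 9 tested members were given in each comparison, and *Tead3* by its reads. From the pathway lists, genes past the threshold between genotypes and the 2 highest of each role were named. The members and lists were chosen with earlier results of these data known. Alternatives covered floor, filter, scaling, depth, weights, voom, litter and leaving out litters or embryos.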

Additional observations from a re-analysis of the deposited data

Results flagged for a closer look

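Members were checked for embryos far from the rest in the groups of HET2 (5) and HOM (10) embryos, in 18 combinations of gene and group that varied, and chance flags about 1 in 20 groups without ties. In 5 of them an embryo stood apart. *Yap1* was at 8.02 log2 RPM (447 reads) in HET2 replicate e, the 1 HET2 embryo of litter 2, with the next value at 9.13, and at 9.65 (630 reads) in HOM replicate b, with the next at 8.96. *Tead1* was at 2.86 (8 reads) and *Lats2* at 2.18 (5 reads) in HET2 replicate d, and *Tead2* was at 3.98 (11 reads) in HET2 replicate c, with the other 4 embryos at the floor of 1.86 in each of these 3 genes. The floor ties those 4 values, so that any value above it stands apart by construction, and the chance share applies to the 2 values of *Yap1* only. The part of litter in these values was not tested.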

How the results depend on the processing

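The number of members called stayed at 0 in HOM against WT, HET2 against WT, HOM against HET2 and between HOM litters under every alternative run. Between HET1 and WT it rose from 0 to 1 with embryos shifted to a common median, with array weights, with voom and without WT litter 2, and to 2 without HET1 litter 1. The member was *Lats1* in the first 3 and *Yap1* without WT litter 2. Between WT litters it rose to 1 (*Yap1*) with voom, and ranged from 0 to 1 when each embryo of litter 2 was left out. Between HET1 litters it fell from 3 to 0 without embryos of under 500000 reads and stayed at 3 under the other 8 alternatives. Leaving out each HET2 embryo, or each HOM embryo of litter 1, gave 0 to 0. For single members, 942 of 953 values kept their side of the threshold, 8 passed it and 3 no longer did. The shift to a common median was 0.07 in WT, 0.15 in HET1, -0.18 in HET2 and 0.28 in HOM embryos (group medians, log2), and with it *Wwtr1* and *Nf2* differed by 0.93 and 0.65 between HOM and WT.

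Mating numbers belong to different crosses. Litter differences correlated between crosses from -0.70 to 0.40 over genes, so the numbers were not taken as pairs. With mating number as a replicate block 0 members were called in the 3 comparisons with WT, and 0 with no replicate block in HOM against HET2. Genes called over the whole table went from 868 to 745 in HET1 and from 6 to 12 in HOM against WT with this block, and to 0 and 2 with litter as a random effect. The count of 868 was also 0 with litter means as replicates (272 at an unadjusted p under 0.05) and 1792 without the common floor. In HOM against WT the count ranged from 2 to 157, the highest being without HOM litter 1, beside 132 without WT litter 1. In HET2 against WT it ranged from 0 to 92, with 57 without HET2 replicate e and 1 or 2 without each of HET2 replicates a to d. Between WT litters 234 became 674 with voom and 404 without WT replicate m, between HET1 litters 2920 became 1273 without embryos of under 500000 reads, and between HOM litters 309 became 100 without HOM replicate a, 23 without b, 144 without c and 875 with array weights. Members with reads in at least 50% of embryos numbered 9, 8 with at least 3 reads and 6 at the shallowest depth. The gap between *Yap1* and *Nf2* was 2.08 (log2 per kb), 2.51 without length and 2.35 per kb of the longest transcript. Depth limits *Tead3*, which was not tested, and *Lats2*, *Amot*, *Tead1* and *Tead2*, each with a median of at most 5 reads, none of which was called.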
